A study of Oryza sativa with 4 samples.

Results

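The DREB transcription factors of rice were followed across leaves of wild type (WT) and *OsABA8ox3* RNAi seedlings before and after a dehydration treatment with polyethylene glycol (PEG). The members were all genes whose symbol or synonym begins with DREB1 or DREB2 in the RefSeq gene table for assembly ASM3414082v1, plus the probe set that the paper gives for the DREB locus Os06g03670. The table holds 13 such genes, of which 8 have a probe set of their own on the Affymetrix Rice Genome Array, with 11 probe sets between them. With the probe set of Os06g03670 this makes 12 of the 57258 rice probe sets, and 8 of the 17905 genes that a probe set could be paired with. DREB1F, DREB1H, DREB1I, DREB1J and DREB2C have no probe set paired with them alone and were not analysed here. One more probe set is paired with DREB2A together with another gene, so its signal cannot be credited to either and it was left out of the members.

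Both genotypes are in the japonica cultivar Zhonghua 11 (ZH11). The labels call the controls wild type, while the study's methods list plants transformed with the pYL vector as WT, and which of these supplied the arrays was not settled. The RNAi plants are 1 transgenic line, RNAi-9, from a set selected for a single insertion, which carries an inverted repeat against *OsABA8ox3*, a gene for the ABA 8'-hydroxylase that inactivates abscisic acid (ABA). The promoter of that repeat and the number of seedlings per sample are not given in the sources used here. Leaves of 4-leaf seedlings were sampled before PEG (0 h) and 2 h into treatment with 20% PEG, with a single array for each genotype and time. No difference below therefore has a replicate check, and no p-value or standard deviation can be given. There is no array at 2 h without PEG, so PEG and time cannot be told apart. In leaf RNA, fewer cells expressing a gene and less RNA per cell cannot be told apart either.

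DREB proteins are plant transcription factors of the AP2/ERF family that bind the dehydration-responsive element, whose core is CCGAC, in the promoters of stress genes. In Arabidopsis the DREB1 genes, also called CBF genes, are best known for their fast induction by cold, whereas the DREB2 genes respond to drought and heat, and both are usually placed in the ABA-independent branch of stress signalling. Their targets include genes for LEA proteins and dehydrins, which protect cells during drying.

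Os06g03670 is the DREB locus that the study chose for quantitative PCR. By that method the paper reports that the genes chosen, this locus among them, rose after the stress. It also reports significantly higher levels in RNAi-9 and another RNAi line than in WT. The paper holds that these results bear out its array data, apart from slight variation in the size of some fold changes. The array values of this locus are given below for each of its probe sets. The primers are shown because they mark which DREB transcript was followed, 5′ to 3′ in lower case as listed in the study's primer table.
forward: tactacggcaacatggacttcga
reverse: ccatctgccagctctggtactc
The paper calls this locus DREB1A. The locus number places it on chromosome 6, whereas the gene that RefSeq names DREB1A lies on chromosome 9 and was measured by another probe set. The only DREB gene of the table on chromosome 6 is DREB1C, with 3 probe sets of its own. The tables used here do not pair the locus number with a RefSeq gene, so the locus is called Os06g03670 throughout.

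After PEG, Os06g03670 rose by 99.5-fold in WT and 86.6-fold in RNAi-9, while DREB1G, DREB2A and DREB2B rose by 2.09-fold to 6.27-fold across the genotypes. DREB1A, in contrast, fell 3.82-fold in RNAi-9, while its signal in WT was 1.75-fold lower, which is under the threshold used here. A change of over 2-fold, which is 1 on the log2 scale, was counted as a rise or a fall. In WT, 8 of the 12 probe sets rose and 1 fell, where 21.9% and 21.0% of all rice probe sets did so. In RNAi-9, 4 rose and 3 fell, against a background of 20.6% and 21.2%. The 4 that rose in RNAi-9 rose in WT too, where 9.31% of all probe sets were higher in both genotypes, and 1 fell in both, where 8.19% did. The median log2 change of the members was 1.53 for WT and 0.03 for RNAi-9, beside −0.10 and −0.13 over all probe sets. The authors' values are log2 signals that reach down to 0, and 6 of the 12 members had a mean log2 signal under 6. Of the 6 members with a mean of at least 6, 4 rose in WT and the same 4 in RNAi-9, where 13.4% and 11.9% of the 23875 probe sets with such a mean rose, and 9.16% rose in both. Of these 6, 0 fell in WT (15.3% of such probe sets), 1 fell in RNAi-9 (14.3%) and 0 fell in both (8.42%). Their median change was 1.41 for WT and 1.17 for RNAi-9, closer together than the medians of all 12. With signals under 6 raised to 6, a floor used below as well, 4 of the 12 rose and 0 fell in WT, and 4 rose and 1 fell in RNAi-9.

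**Figure D1:**
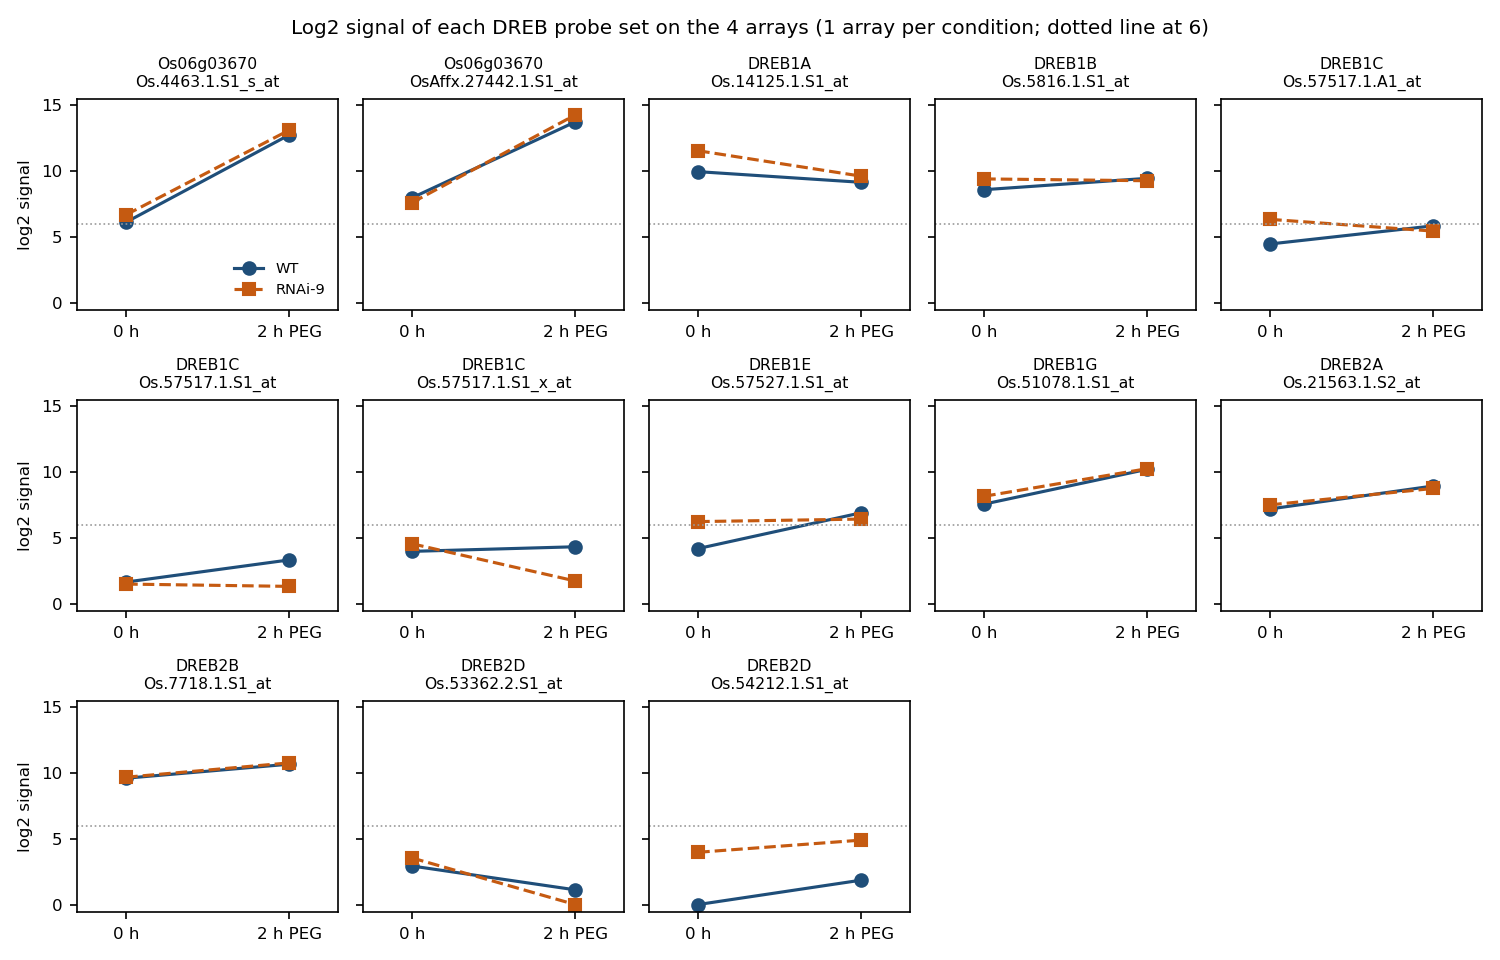
Log2 signal of each DREB probe set at 0 h and 2 h of PEG in WT (circles, solid line) and RNAi-9 (squares, broken line), 1 array per point, with a dotted line at 6. The probe sets of Os06g03670 climb from 6.12 to 7.98 at 0 h up to 12.76 to 14.27 at 2 h, while those of DREB1C and DREB2D stay under or near 6.

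Os06g03670 had the largest rise of the members in both genotypes. Its member probe set, whose name ends in _s_at because it can hybridize to several transcripts, had a log2 signal of 6.12 in WT at 0 h and 12.76 at 2 h. In RNAi-9 the signals were 6.68 and 13.12. Both 2 h arrays were far above both 0 h arrays, and the genotypes lay close together at each time. The log2 rises were 6.64 for WT and 6.44 for RNAi-9, which ranked 36 and 41 among the changes of all 57258 probe sets.

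Another probe set, which the paper's tables give to the same locus and which is not among the 12 members, had signals of 7.98 and 13.74 in WT. Its RNAi-9 signals were 7.61 and 14.27. The rise was 54.5-fold in WT and 101-fold in RNAi-9. The order of the genotypes thus differed between the probe sets of this locus. RNAi-9 minus WT for the change was −0.20 on the member probe set, or 0.36 with a floor of 8, and 0.89 on the other. At 2 h both were higher in RNAi-9, by 0.36 and 0.53, but at 0 h RNAi-9 was higher by 0.57 on the first and lower than WT on the second, at −0.36. After each array was scaled to its hybridization controls, which are bacterial and phage RNAs added to the sample, the 2 h differences were −0.06 and 0.10. The steep rise was seen on both probe sets in both genotypes, while the sign of the difference between genotypes in the change depended on the probe set and, for the member probe set, on the floor.

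The 3 probe sets paired with DREB1C had signals near or under 6 and showed no rise of this size. The one ending in A1_at was at 4.46 and 5.84 in WT and at 6.33 and 5.44 in RNAi-9, at 0 h and 2 h. The probe set ending in S1_at was at 1.64 and 3.32 in WT and at 1.48 and 1.31 in RNAi-9. The one ending in S1_x_at was at 3.97 and 4.32 in WT and at 4.55 and 1.72 in RNAi-9. On each probe set the WT signal went up and the RNAi-9 signal went down. In that order, the WT changes were 1.38, 1.68 and 0.35, and the RNAi-9 changes were −0.89, −0.18 and −2.83. Once signals under 6 were raised to 6, the S1_at and S1_x_at probe sets had no change left and the A1_at probe set kept a change of −0.33 in RNAi-9 alone. Whether these probe sets and those of Os06g03670 measure different genes or the same one was not tested. The values above are therefore given by probe set, and no level or direction is given for DREB1C as a gene.

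DREB1G, on chromosome 2, rose in both genotypes. Its log2 signal was 7.57 and 10.22 in WT and 8.16 and 10.26 in RNAi-9. Signals at 2 h were nearly the same, with a difference of 0.05, and the larger rise in WT, 6.27-fold against 4.29-fold, came with a lower start. DREB1E, on chromosome 4, was measured at 4.18 and 6.91 in WT and at 6.24 and 6.43 in RNAi-9. Only the WT array at 0 h stood apart from the rest. The WT rise of 2.72 became 0.91 with a floor of 6, which is under 2-fold, and the RNAi-9 change was 0.19 with or without the floor.

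DREB1A and DREB1B lie in 1 cluster on chromosome 9 with DREB1H between them as the only protein-coding gene, and as neighbouring copies their probe sets could share signal. DREB1A, which is known in rice as a cold-induced gene, was at 9.96 and 9.15 in WT and at 11.55 and 9.62 in RNAi-9. The RNAi-9 array at 0 h was well above the other arrays, and after PEG the signals converged. DREB1A fell by 1.93 in log2 in RNAi-9, beside −0.81 in WT. DREB1B was at 8.59 and 9.45 in WT and at 9.41 and 9.27 in RNAi-9. Only the WT array at 0 h was lower than the rest, and the changes of 0.86 and −0.14 were both under 2-fold, though after quantile normalization the WT change was 1.04. The neighbours had in common that RNAi-9 was higher than WT at 0 h, by 1.59 for DREB1A and 0.82 for DREB1B. After PEG the difference was 0.47 for DREB1A and −0.18 for DREB1B.

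Among the DREB2 genes, DREB2A and DREB2B rose in both WT and RNAi-9. DREB2A, on chromosome 1, whose Arabidopsis counterpart drives drought and heat responses, was at 7.20 and 8.95 in WT and at 7.51 and 8.76 in RNAi-9. It rose 3.35-fold in WT and 2.38-fold in RNAi-9. DREB2B, on chromosome 5, which in rice is known to gain an active transcript by splicing under stress, was at 9.62 and 10.68 in WT and at 9.69 and 10.78 in RNAi-9. Its rises of 2.09-fold and 2.13-fold lay just past the threshold and were nearly equal. In RNAi-9 both lost the 2-fold call with scaling to the hybridization controls, at log2 changes of 0.98 for DREB2A and 0.82 for DREB2B, and DREB2B lost it in WT, at 0.97, with the arrays set to a common median. With a floor of 8, DREB2A lost it in both genotypes, at 0.95 (WT) and 0.76 (RNAi-9). The probe set that DREB2A shares with another gene was at 8.61 to 10.36 over the arrays. It rose 3.09-fold in WT and 2.70-fold in RNAi-9, with a difference of changes of −0.19, but cannot be credited to DREB2A alone.

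DREB2D, also on chromosome 5, stayed under 6 on all arrays, and its probe sets disagreed. The first was at 2.93 and 1.12 in WT and at 3.54 and 0 in RNAi-9. The other was at 0 and 1.85 in WT and at 3.98 and 4.90 in RNAi-9. The first was lower after PEG in both genotypes and the other higher in both, so that their changes differed by 3.67 (WT) and 4.47 (RNAi-9). With a floor of 6 nothing is left of either change, and no direction is given for DREB2D.

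**Figure D2:**
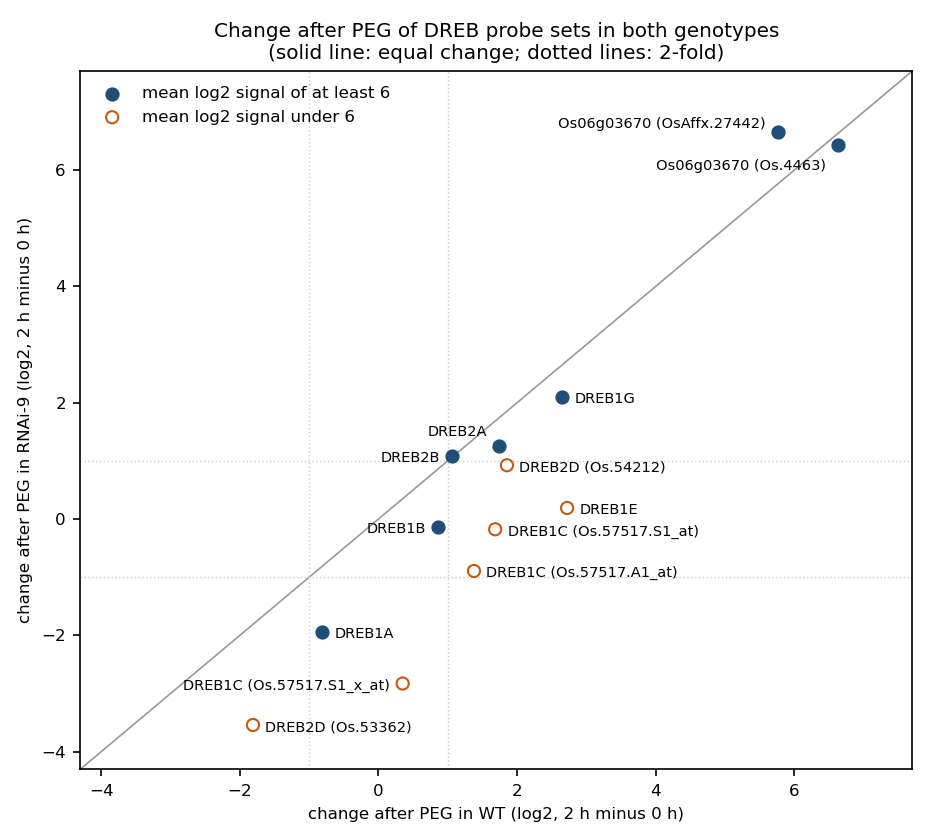
Log2 change from 0 h to 2 h of PEG in WT (horizontal axis) against RNAi-9 (vertical axis) for each DREB probe set, with filled points for a mean log2 signal of at least 6 and open points for lower means. Of the 12 members, 11 lie below the line of equal change, while DREB2B and the added probe set of Os06g03670 lie above it.

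Set against WT, most members had the higher signal in RNAi-9 at 0 h, whereas at 2 h they were divided. At 0 h, 11 of the 12 probe sets had the higher signal in RNAi-9, where 52.2% of all probe sets did, and the median difference was 0.60 against 0.04 over all probe sets. The exception was the S1_at probe set of DREB1C, at −0.15. Over 2-fold, 4 were higher in RNAi-9 (18.4% of all probe sets) and 0 lower (15.1%). These were DREB1A, DREB1E, 1 probe set of DREB2D and the A1_at probe set of DREB1C. Among those with a mean signal of at least 6, only DREB1A was over 2-fold higher, at 3.01-fold (5.45% of such probe sets), and 0 were lower (3.02%). All 6 members above that mean were higher in RNAi-9 at 0 h, by 0.08 for DREB2B, 0.31 for DREB2A, 0.57 for Os06g03670, 0.60 for DREB1G, 0.82 for DREB1B and 1.59 for DREB1A, where 51.2% of such probe sets were higher. With the arrays scaled to the median of all probe sets DREB2B was lower in RNAi-9, at −0.04. Outside the members, the other probe set of Os06g03670 was lower in RNAi-9 at 0 h, at −0.36. The probe set that DREB2A shares with another gene was lower too, at −0.12. At 2 h, 5 of the 12 were higher in RNAi-9 (50.0% of all probe sets), with a median difference of −0.18. Over 2-fold, 1 was then higher (17.0%) and 3 lower (15.1%), and all 4 had mean signals under 6. Of the 6 brighter members 4 were higher in RNAi-9 at 2 h by any size (48.4% of such probe sets), with 0 over 2-fold higher (4.88%) or lower (2.71%). Scaled to the hybridization controls, only DREB1A of these 6 was still higher at 2 h, by 0.04.

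**Figure D3:**
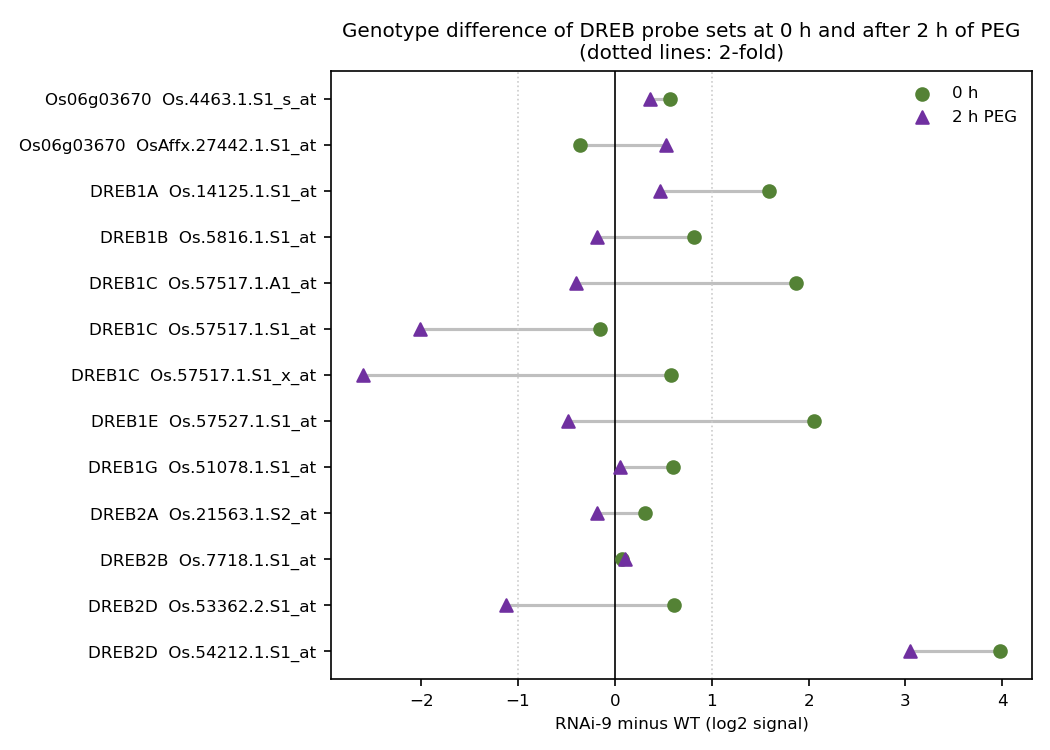
Log2 signal of RNAi-9 minus WT for each DREB probe set at 0 h (circles) and at 2 h of PEG (triangles), 1 array per condition, with a line joining the times. At 0 h, 11 of the 12 members lie to the right of 0, and at 2 h 5 do.

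The signed change after PEG was smaller in RNAi-9 for 11 of the 12 probe sets, where 52.1% of all probe sets had a smaller change than in WT. This is the same arithmetic as the genotype differences, since the difference of changes equals the 2 h difference minus the 0 h difference. The change was over 2-fold less in RNAi-9 for 7 (21.7% of all probe sets) and over 2-fold more for 0 (20.5%). Of the 7, DREB1A and DREB1B had a mean signal of at least 6, at −1.12 and −1.0, where 5.17% of such probe sets were over 2-fold less, 4.98% over 2-fold more, and 52.8% below 0, as 5 of the 6 members were. DREB1B sat on the threshold and was under 2-fold, at −0.92 to −0.97, with either median scaling or once 32 was added to linear signals. DREB1G and DREB2A changed less in RNAi-9 by 0.55 and 0.50, and DREB2B was at 0.03, or −0.35 with scaling to the hybridization controls. With a floor of 6, 7 of the 12 were below 0 and the median difference went from −1.06 to −0.27. The hybridization controls were brighter on the RNAi-9 array at 2 h, with a mean log2 signal of 12.20, than on the other arrays, at 11.77 to 11.93. Scaling to them lowered every difference of changes by 0.37. The part of this brightness in the results was not tested.

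**Figure D4:**
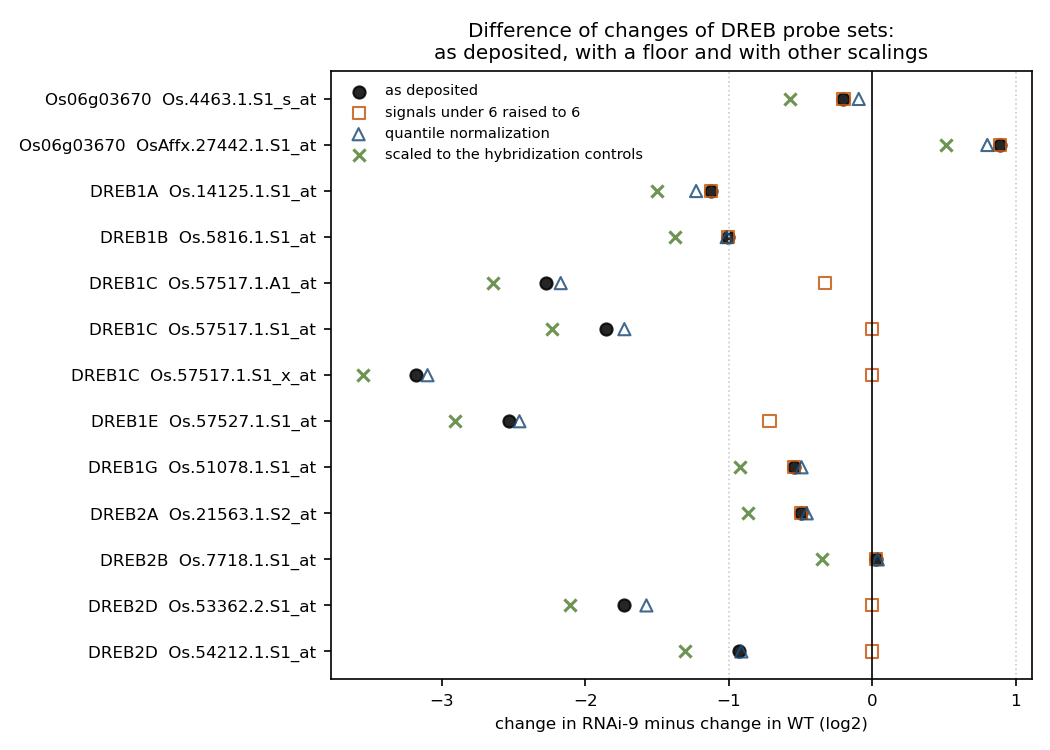
Log2 change in RNAi-9 minus log2 change in WT for each DREB probe set with the signals as deposited (filled circles), with signals under 6 raised to 6 (squares), after quantile normalization (triangles) and scaled to the hybridization controls (crosses). The points of DREB1A and DREB1B stay at or below −1 in all 4, whereas those of DREB1C, DREB1E and DREB2D move to between −0.72 and 0 once low signals are raised.

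The named genes whose profile over the 4 arrays lay nearest to that of each main responder were taken by the Euclidean distance between centred log2 signals, with signals under 6 raised to 6, among 2104 or 2105 genes. The distances are a description over 4 arrays. They were not scaled for the size of a change, so they are not compared between members. Nearest to Os06g03670 were the dehydrin gene RAB16B (distance 0.56), the sugar transporter gene OsSWEET16 (0.98), the homeobox gene HOX24 (1.31) and the protein phosphatase 2C genes PP2C68 (1.40) and OsPP2C30 (1.52). RAB16B rose by 7.37 (WT) and 6.70 (RNAi-9) in log2, where Os06g03670 rose by 6.64 and 6.44, and with the floor the WT rise of RAB16B was 5.90. The genes nearest to DREB1G were OsPP2C02 (0.11), OsPP2C32 (0.16), ERH1 (0.21), LOGL7 (0.23) and OsPHR3 (0.25). OsPP2C02 rose by 2.74 and 2.21, beside 2.65 and 2.10 for DREB1G. For DREB2A they were OsWOX13 (0.11), NAC067 (0.19), PSS2 (0.19), pTUB22 (0.20) and GH3-8 (0.23), of which NAC067 rose by 1.84 (WT) and 1.01 (RNAi-9).

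Genes around the DREB factors were read from lists by name, with the probe sets of a gene averaged. Whether DREB factors act on the listed genes in these leaves was not tested. Of 10 genes for protective proteins and solutes of the kind DREB factors are known to activate, 7 rose in WT and 7 rose in RNAi-9, 6 of them in both, where 17.5%, 16.0% and 10.3% of all 17905 genes rose. Of the 10, 0 fell, where 15.6% of genes fell in WT and 15.7% fell in RNAi-9. The list's median change was 2.24 for WT and 2.47 for RNAi-9, and 6 of the 10 changed more in RNAi-9 and 4 less, where 52.1% of all probe sets, counted singly, changed less. In WT and RNAi-9 respectively, RAB21 rose by 4.39 and 4.87, rab25 by 3.80 and 4.50, and LEA19 by 2.00 and 4.02. The 4 that changed less in RNAi-9 were RAB16B, given above, salT at 2.47 and 1.97, Dhn1 at 1.74 and −0.02, and P5CS2 at 0.84 and −0.43, the last 3 chosen after their values were seen. With signals under 6 raised to 6, RAB16B changed more in RNAi-9, at 5.90 (WT) and 6.70 (RNAi-9), and salT was unaltered. Dhn1 was then at 1.13 (WT) and 0.92 (RNAi-9), and P5CS2 at −0.04 and −0.09. The upstream regulators had 3 measured genes. MPK3, a stress-activated MAP kinase, rose by 1.69 (WT) and 1.33 (RNAi-9). PhyB, the red light receptor phytochrome B, fell by 1.45 in RNAi-9, where its 0 h signal was 0.90 above that of WT, and its WT change was −0.76. SIZ1, a SUMO ligase, changed by −0.25 and −0.46. Of 4 other AP2/ERF genes, 0 rose and 2 fell in WT and 1 rose and 1 fell in RNAi-9. AP2-5 fell in both, at −1.26 and −1.03. ERF78, under 6 on all arrays, rose by 2.99 in RNAi-9 on the signals as deposited, fell by 1.48 in WT, and had no change with a floor of 6. EREBP-1 and AP2-1 stayed under 2-fold.

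Across the 4 arrays, the median log2 signal was 5.32 to 5.45 and 42.4% to 43.4% of the probe sets reached 6, while the hybridization controls differed as given above. Of 6 genes listed as leaf markers, for Rubisco, Rubisco activase and light harvesting proteins, 5 had mean signals of at least 6 with 0 of the 6 past 2-fold, and the log2 of their summed signal was 16.82 to 17.29. Of 9 seed storage genes 1 had a mean of at least 6, and their log2 summed signal was 8.67 to 8.89. *OsABA8ox3* was not paired with a probe set, so the genotype labels were not checked on the silenced gene.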

How the data were processed

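Leaf RNA of 4 samples was hybridized to the Affymetrix Rice Genome Array, 1 array per condition. Per the paper's methods, the authors used Affymetrix GCOS to read and normalize the arrays, and they deposited log2 signals. MAS5 is named in the submitters' processing notes with no version, and the scaling target is not given in the sources used here. Each array was scaled on its own, so the brightness of an array as a whole can move every difference that involves it. Differences between deposited log2 signals were computed with Python 3.11.15 and pandas 2.3.3, with no floor, filter or pseudocount, and called at over 2-fold. With 1 array per condition no test was run, and depth has no counterpart on arrays, where their number limits the precision. Probe sets were paired with genes through the platform annotation and RefSeq synonyms. Of 22531 annotated probe sets, 22436 paired with 1 gene and 95 with several, and 123 control probe sets were left out. Values of the members are given per probe set, since probe sets of 1 gene disagreed. For genes of the lists, the markers and the nearest profiles, the log2 signals of a gene's probe sets were averaged. Members and lists were chosen with earlier results of these data known. Genes of another family that share a name with a list (OsSK1, OsSK2, AP25, HOS13, HOS16, RCAR5, MADS3 and a second MAP kinase with the synonym MPK3) were taken off after the matches had been read. The named genes are all members, the 5 nearest profiles to each of 3 members, and in each list up to 4 genes with the largest change at a floor of 6. Outside this rule, salT, Dhn1 and P5CS2 were named after their values had been seen. Alternatives were floors of 5, 6 and 8, an offset of 32 on the linear signal, 4 other scalings, thresholds of 1.5-fold and 3-fold, fewer probe sets, counting by gene, and WT at 0 h as baseline. A mean signal of at least 6 and the second probe set of Os06g03670 were added after the data had been seen. The functions were tested on simulated arrays with known changes. Promoter and protein sequences were not analysed here.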

Additional observations from a re-analysis of the deposited data

Results flagged for a closer look

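Several DREB probe sets moved in opposite directions in the genotypes, or changed the sign of the genotype difference between the times. With 1 array per condition none of these differences was tested. The share of all rice probe sets that did the same was not counted, so none of this is read as particular to the members. After PEG, the change of DREB1B was 0.86 (WT) and −0.14 (RNAi-9). For DREB1C it was 1.38 and −0.89 on the A1_at probe set, 1.68 and −0.18 on S1_at, and 0.35 and −2.83 on S1_x_at. RNAi-9 minus WT went from 0.82 at 0 h to −0.18 at 2 h for DREB1B and from 0.31 to −0.19 for DREB2A, both with signals above 6 on all arrays. It went from 2.05 to −0.48 for DREB1E, from 0.61 to −1.12 for the first probe set of DREB2D, and from 1.87 to −0.40 and from 0.58 to −2.60 for the A1_at and S1_x_at probe sets of DREB1C, all with a mean signal under 6. The change of DREB1B in RNAi-9 became 0.02 after quantile normalization and 0.001 after scaling to the bright probe sets.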

How the results depend on the processing

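Counts of members over 2-fold moved most when low signals were raised. With floors of 6, 5 and 8, the number higher after PEG in WT went from 8 to 4, 5 and 3, the number lower in WT and in both genotypes from 1 to 0, and the number lower in RNAi-9 from 3 to 1. Over 2-fold less change in RNAi-9 was left for 2, 4 and 2 of 7, and a difference of changes below 0 for 7, 7 and 4 of 11. At 2 h the 1 higher and the 3 lower in RNAi-9 became 0, and at 0 h the 4 higher became 1 with floors of 6 and 8. With a floor of 8, 4 were higher at 0 h by any size. An offset of 32 gave 5 higher in WT, 0 lower in WT and in both, 1 lower in RNAi-9, 0 different at 2 h and 3 with over 2-fold less change in RNAi-9. Scaling to the hybridization controls left 2 higher in RNAi-9 and in both, and 2 higher in RNAi-9 at 2 h by any size, and moved all WT changes by 0.10 and all RNAi-9 changes by −0.27. At 1.5-fold, 2 were lower in WT and in both and 7 higher in RNAi-9 at 0 h, and at 3-fold 2 were higher in RNAi-9 and in both. By gene, 0 were lower in WT and in both. The gene means gave 0 higher and 1 lower in RNAi-9 at 2 h, and the brightest probe set per gene gave 1 lower after PEG in RNAi-9, 0 lower at 2 h and 4 with over 2-fold less change. Among the 6 probe sets with a mean of at least 6, these counts were 4 higher and 0 lower in WT, 1 lower in RNAi-9, 0 lower in both, 1 higher at 0 h, 0 different at 2 h, 2 with over 2-fold less change, 5 with a difference below 0 and 6 higher at 0 h by any size. For the scalings the cause was not tested. Of the single values and medians under the floors, the offset and the scalings, 448 were counted as the same. For a single value this meant that it kept its side of 2-fold and did not take the opposite sign. A value under 2-fold that a floor brought to 0 was therefore counted as the same. For medians it meant a move within 0.1. Of the rest, 74 were no longer past 2-fold, 4 became so, 34 moved otherwise and 0 past 2-fold changed sign. No paired analysis was possible because each condition has 1 array, and no replicate could be left out.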
